A study of Ambystoma mexicanum with 12 samples.

Results

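BTBD8 (AMEX60DD019134), TCF23 (AMEX60DD032637), TAF7L.2 (AMEX60DDU001004020) and PAFAH2 (AMEX60DD005745) are 4 of the 99088 genes counted in limb tissue of the axolotl, Ambystoma mexicanum. They were picked from a list that the study drew up of genes whose level was correlated with its aged samples, here 4 of the 9 that were lower. The aged limb values therefore chose them, and every comparison with the aged limbs is given as a description without a test. The juvenile limbs and the blastemas also entered that choice, as the samples from which the aged ones differed, which favours genes that vary little among them. So did samples of earlier studies, which the study analysed together with its own after batch correction.

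The RNA sequencing comprised 12 libraries, each of tissue from 1 animal. The 5 juvenile limbs came from axolotls 8 months old, and the 5 blastemas are the regenerating outgrowths collected from those juveniles 10 days after amputation. The 2 aged limbs came from other axolotls, 8 years old, which formed no blastema after amputation. The study reports that nothing was sampled from the aged animals after amputation, so the aged limbs are not healing stumps. All animals belonged to a captive colony descended from wild axolotls of Lake Xochimilco, and no strain, transgene or drug treatment separates the groups. Blastemas and juvenile limbs carry the replicate numbers 2, 3, 5, 6 and 8, one number for each animal, and the aged limbs are numbered 1 and 2. The sources differ on whether a hind or a front limb was sampled.

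The 4 genes have different known roles, of which those of TCF23 and TAF7L are both in transcription. BTBD8 carries a BTB domain, a fold through which many proteins pair with each other, and in mammals a protein of this name binds the clathrin adaptor AP-2 in the recycling of synaptic vesicles. TCF23 is a basic helix-loop-helix protein, and its mouse counterpart does not bind DNA by itself and restrains other factors of the same class. TAF7L is a paralogue of TAF7, a subunit of the general transcription factor TFIID, and in mice it serves in male germ cells and in fat cells. PAFAH2 is an intracellular enzyme that hydrolyses platelet-activating factor and phospholipids with short or oxidised chains.

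Library totals ranged from 13392223 to 20663627 counts in the blastemas, from 12975883 to 18575093 in the juvenile limbs and from 16836023 to 17666680 in the aged limbs. Levels are counts relative to library size (CPM), scaled once over all 12 libraries, and are not corrected for gene length, so they are compared within a gene and not between genes. At 3 counts, the smallest number treated as detectable here, the floor was 0.134 CPM in aged limb 1 and 0.194 CPM in aged limb 2. Summed levels of the skeletal muscle markers lay between 6234 and 32020 CPM for juvenile limbs and between 70.5 and 105.9 CPM for blastemas, with 12380 CPM in aged limb 1 and 1757 CPM in aged limb 2. In bulk tissue, fewer cells of a type and less RNA per cell cannot be told apart.

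BTBD8 was close to undetected in the aged limbs and clearly present in every other library. The aged limbs held 2 counts (0.0891 CPM) and 0 counts, where the juvenile mean would have given 125.6 and 86.7 counts at the depth of each library. In juvenile limbs 2, 3, 5, 6 and 8 its level was 2.92, 3.79, 7.99, 3.67 and 9.61 CPM. In the blastemas of the same numbers it was 4.80, 4.97, 5.91, 2.81 and 5.14 CPM. Juvenile limbs 5 and 8 stood above all 5 blastemas, while the other 3 juvenile limbs overlapped with them. The group mean was 5.60 ± 3.00 CPM (SD, n = 5) in juvenile limbs and 4.73 ± 1.16 CPM (SD, n = 5) in blastemas. Pooled over each group, BTBD8 was 99.2-fold lower in the aged than in the juvenile limbs, with a 95% exact counting interval of 27.3 to 821 that covers counting error only. This ratio rests on 2 counts in 1 library, under the 3 treated as detectable, because the floor was applied only to a group at 0. The pooled aged level, 0.0527 CPM, lay under the group floor of 0.0791 CPM, so the size of the ratio is not settled. Without aged limb 1 the ratio is a bound of −4.75 on the log2 scale against −6.63 with both.

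TCF23 was not detected in either aged limb, with 0 counts in each where the juvenile mean would have given 35.9 and 24.8. In juvenile limbs 2, 3, 5, 6 and 8 it stood at 1.14, 2.45, 0.896, 2.55 and 0.968 CPM. The matching blastemas had 0.588, 3.32, 2.44, 2.35 and 3.20 CPM. The lowest of these, blastema 2, rested on 6 counts, and the highest, blastema 3, on 72 counts. TCF23 had the lowest totals of the 4 genes, 145 counts over the juvenile limbs and 183 over the blastemas, and the widest spread among the blastemas, 5.64-fold from lowest to highest. Its means were 1.60 ± 0.826 CPM in juvenile limbs and 2.38 ± 1.09 CPM in blastemas (SD, n = 5 each). With the aged group set at a floor of 3 counts over both libraries, TCF23 was at least 20.6-fold lower in aged than in juvenile limbs. That bound, −4.37 on the log2 scale, becomes −3.07 without aged limb 1 and −3.58 without aged limb 2. At the level of blastema 2, the aged limbs would still have given 13.2 and 9.11 counts.

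TAF7L.2 was low but detected in both aged limbs, at 0.446 CPM (10 counts) and 0.258 CPM (4 counts). In juvenile limbs 2, 3, 5, 6 and 8 its level was 7.32, 5.60, 3.65, 5.59 and 5.23 CPM. The blastemas of those numbers had 9.40, 5.16, 6.70, 8.57 and 4.39 CPM. Blastemas 2 and 6 stood above all juvenile limbs, juvenile limb 5 stood below all blastemas, and the groups otherwise overlapped. The juvenile mean was 5.48 ± 1.31 CPM and the blastema mean 6.84 ± 2.15 CPM (SD, n = 5 each). The pooled level in aged limbs was 15.02-fold lower than in juvenile limbs, with a 95% counting interval of 8.87 to 27.7. The fit gave −3.90 on the log2 scale (standard error 0.50). The numeric suffix marks one of several genes given the same name in the annotation, and whether reads were shared between them was not tested.

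PAFAH2 was the member with the most counts left in the aged limbs, 17 (0.758 CPM) and 4 (0.258 CPM). In juvenile limbs 2, 3, 5, 6 and 8 it measured 8.86, 8.88, 3.31, 11.1 and 6.26 CPM. In the matching blastemas it measured 9.11, 7.28, 6.23, 8.95 and 6.48 CPM. All 5 blastemas fell between the lowest juvenile limb, number 5, and the highest, number 6. The means were nearly equal, 7.69 ± 2.99 CPM in juvenile limbs and 7.61 ± 1.36 CPM in blastemas (SD, n = 5 each). PAFAH2 was 14.1-fold lower in aged than in juvenile limbs from the pooled counts, with a 95% counting interval of 9.16 to 23.0, and the fit gave −3.85 on the log2 scale (standard error 0.65). Without aged limb 1 the fit gave −4.84.

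**Figure D1:**
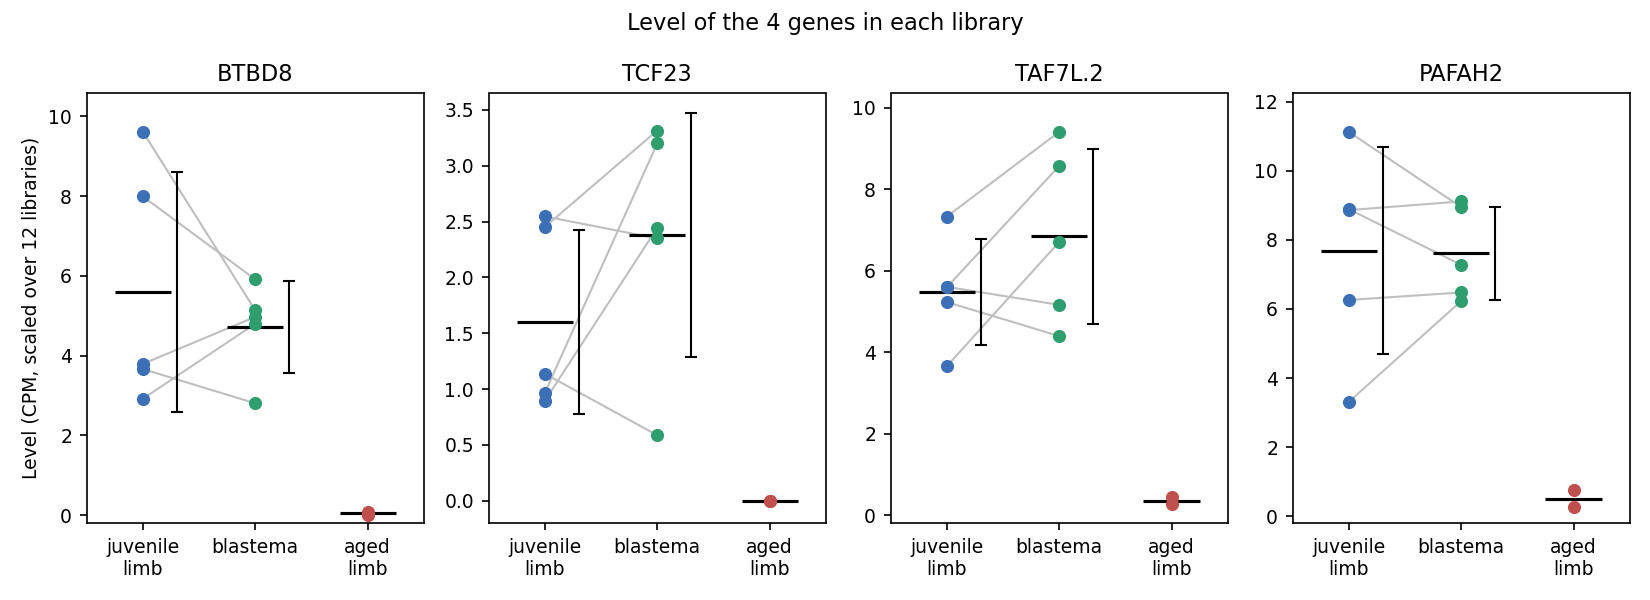
Level of each gene in CPM in the juvenile limbs, blastemas and aged limbs. Points are libraries, black lines group means, error bars 1 SD (n = 5), and grey lines join the limb and blastema with the same animal number; the aged points lie at or near 0 and the other groups overlap.

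Against the blastemas the aged limbs were also lower for each gene. The pooled level of BTBD8 was 90.0-fold lower than in blastemas, with a 95% counting interval of 24.7 to 746. That of TCF23, with 3 counts put in for the aged limbs, was 32.5-fold lower, with an interval from 26.2 upward. The corresponding ratios were 17.7-fold for TAF7L.2, with an interval of 10.4 to 32.6, and 13.6-fold for PAFAH2, with an interval of 8.79 to 22.1. These comparisons share the aged libraries with those against the juvenile limbs.

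For every one of the 4 genes both aged limbs lay below all 10 other libraries, as the choice of genes favoured. Over the 24316 genes tested between aged and juvenile limbs this held for 434, or 1.78%, and both aged limbs lay below all 5 juvenile limbs for 1541, or 6.34%. The distance from the highest aged limb to the lowest other library differed between the genes. It was 31.5-fold for BTBD8, 8.196-fold for TAF7L.2 and 4.37-fold for PAFAH2. The value for BTBD8 starts from 0.0891 CPM in aged limb 1, under the floor of 0.134 CPM in that library. For TCF23 no ratio can be given because both aged limbs were at 0. Both aged limbs were under 10% of the juvenile mean and below every other library for all 4 genes, as for 69 of the genes tested (0.284%). This limit lies just above the highest share of the 4 genes, 9.86%, and the aged values chose them. The share of 0.284% is therefore no measure of how unusual they are. As a share of the juvenile mean, aged limbs 1 and 2 had 1.59% and 0% for BTBD8, 8.13% and 4.71% for TAF7L.2, and 9.86% and 3.36% for PAFAH2.

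The counts of these genes were too few to separate the 2 aged limbs from each other. TAF7L.2 was 1.73-fold higher in aged limb 1 than in aged limb 2, with a 95% counting interval of 0.498 to 7.54. PAFAH2 was 2.94-fold higher, with an interval of 0.957 to 12.0. Both intervals include equal levels, that of PAFAH2 only just. For BTBD8 the counts of 2 and 0 allow no ratio.

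Markers of other cell types were not at the same level in every group, and they are given here beside the aged values. The skeletal muscle sum of aged limb 1 lay within the juvenile range, while that of aged limb 2 lay below it. The 3 bone markers, BGLAP, IFITM5.1 and PHOSPHO1, which act in mineralising bone, summed to 14.3 to 29.6 CPM in juvenile limbs, 1.19 to 5.16 CPM in blastemas and 1.34 to 3.23 CPM in aged limbs. IFITM5.1 was at 0 in both aged limbs, and IFITM5.1 and BGLAP were at 0 in all blastemas. The 5 nerve and Schwann cell markers summed to 73.9 to 243.9 CPM in juvenile limbs, 12.0 to 62.0 CPM in blastemas and 63.9 to 80.4 CPM in aged limbs, where NEFH was at 0. In the blastemas the summed muscle markers were below every limb, and the bone and nerve sums were below every juvenile limb. Blastema means of the 4 genes ran from 84.4% (BTBD8) to 148.7% (TCF23) of the juvenile mean. Blastemas and aged limbs are different tissues, and a link between these values and the aged ones was not tested.

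The 3 bone markers had a median log2 fold change of −5.82 between aged and juvenile limbs, or −4.21 with genes at 0 set to 3 counts. By the same measures the 4 genes, chosen on the aged values, had −5.23 and −4.13. The bone markers too were listed with earlier results of these data known, so neither set is an independent yardstick for the other. Over both aged limbs BGLAP had 4 counts and IFITM5.1 had 0. The immune markers had a median of 0.07, with values from −1.92 for CCL19 to 1.06 for IL1B.1. The 2 fat markers tested had a median of −0.10 but went opposite ways, ADIPOQ by −1.03 and PLIN2 by 0.84. The 9 keratinocyte markers had a median of −1.22, close to the −1.28 of the 22 muscle markers and the −1.04 of the nerve and Schwann cell markers. Their sums did not show this: they came to 5186 to 5534 CPM in aged limbs, within the 3213 to 9886 CPM of juvenile limbs, against 1067 to 2721 CPM in blastemas. The 7 immune markers summed to 279.5 to 461.6 CPM in aged limbs and 175.7 to 527 CPM in juvenile limbs. The 3 fat markers summed to 13.4 and 56.9 CPM in the aged limbs against 28.7 to 107.6 CPM in the juvenile limbs, so that 1 aged limb lay below every juvenile limb. The part of any cell type in the aged values of the 4 genes was not tested.

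**Figure D2:**
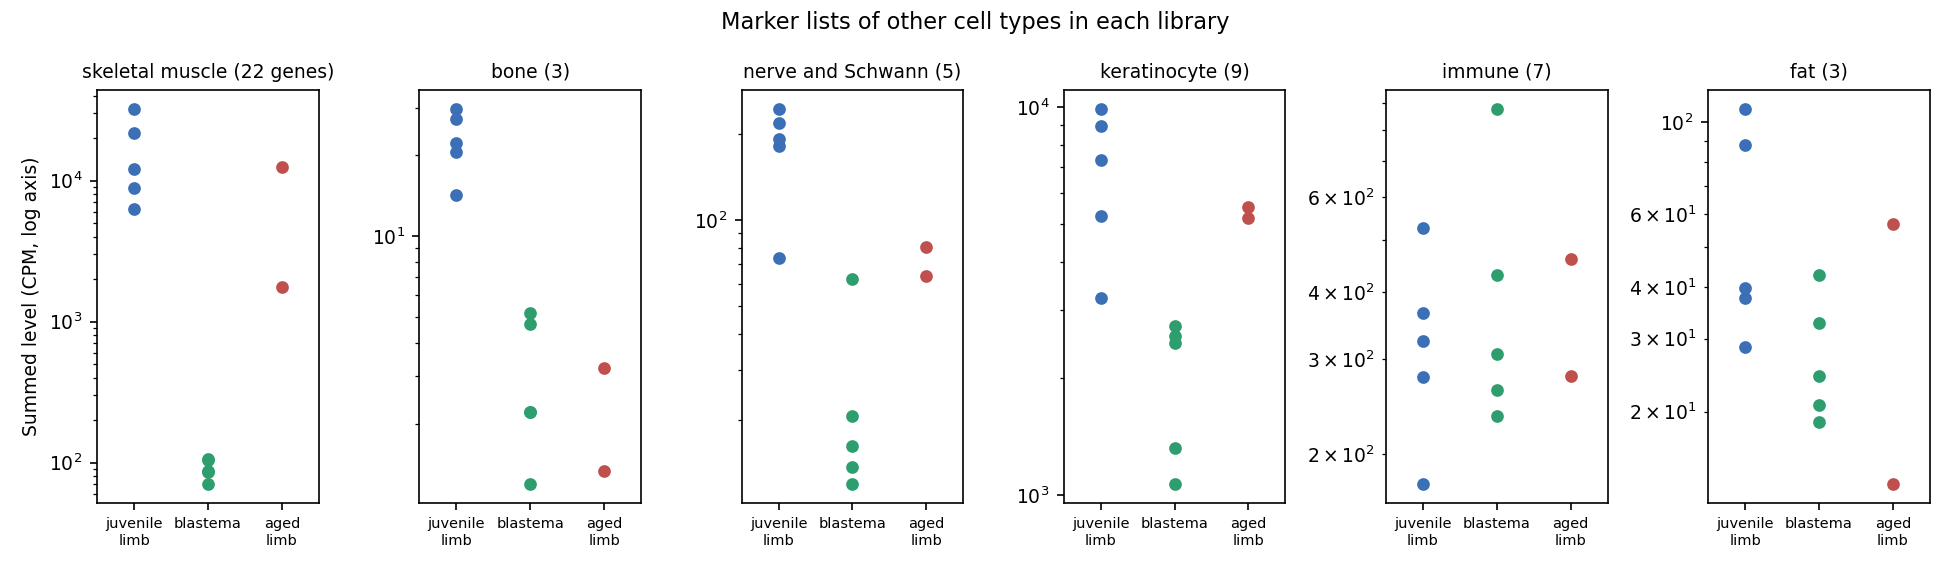
Summed level in CPM (log axes) of the marker genes of 6 tissues or cell types in each library. Points are libraries; the bone sums of aged limbs and blastemas lie below all juvenile limbs, and the muscle sum of aged limb 1 lies within the juvenile range.

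The comparison of blastema with juvenile limb asked whether the genes move during early regeneration in young animals. None of the 4 passed the test, an absolute log2 fold change above 1 with an adjusted p under 0.05 in edgeR's quasi-likelihood F test. Of the 19961 genes tested 1488, or 7.45%, did: 371 (1.86%) were higher and 1117 (5.6%) lower in blastemas. For none of the 4 were blastemas and limbs free of overlap, as 10.5% of all genes were. The background is so low that 0 of 4 is no result about these genes, and the interval of each difference is the more informative value. The choice of the genes favoured small differences between these groups, so a small difference is no independent evidence of little change.

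From limb to blastema, BTBD8 differed by −0.24 on the log2 scale (standard error 0.37) with an adjusted p of 0.735 in edgeR's test. Its 95% interval ran from −1.05 to 0.56, so a fall by slightly more than the threshold is still within it. This interval comes from a fit that did not pair the animals. With the animals as blocks the estimate was −0.13 with a standard error of 0.32. The blastema was higher than the limb of the same number in 2 of 5 animals. Without juvenile limb 8, the highest library, the estimate was 0.09.

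TCF23 differed by 0.57 on the log2 scale (standard error 0.50), again with an adjusted p of 0.528 in the same edgeR test. The interval, −0.52 to 1.66, includes rises well above the threshold, so the depth and spread do not settle the level of TCF23 in blastemas. By animal the log2 ratio of blastema to limb was 1.73 in animal 8, 1.448 in animal 5 and 0.44 in animal 3, but −0.12 in animal 6 and −0.95 in animal 2.

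TAF7L.2 differed by 0.31 on the log2 scale (standard error 0.28), with an interval of −0.29 to 0.92 and an adjusted p of 0.532 (edgeR). PAFAH2 differed by −0.02 (standard error 0.30), with an interval of −0.67 to 0.63 and an adjusted p of 0.977 (edgeR). For both, the interval of this fit excludes a change as large as the threshold of 1. The juvenile limbs and blastemas entered the choice of the genes, which favoured small differences, so the exclusion is no independent evidence of little change. For TAF7L.2 the exclusion also depends on the libraries used. Without juvenile limb 2 its estimate was 0.44 with a standard error of 0.30, and an interval of that width reaches past 1. The blastema exceeded the limb of the same number in 3 of 5 animals for each of TCF23, TAF7L.2 and PAFAH2. The direction of PAFAH2 turned with small changes of processing, to 0.06 with the animals as blocks, since the estimate is close to 0.

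**Figure D3:**
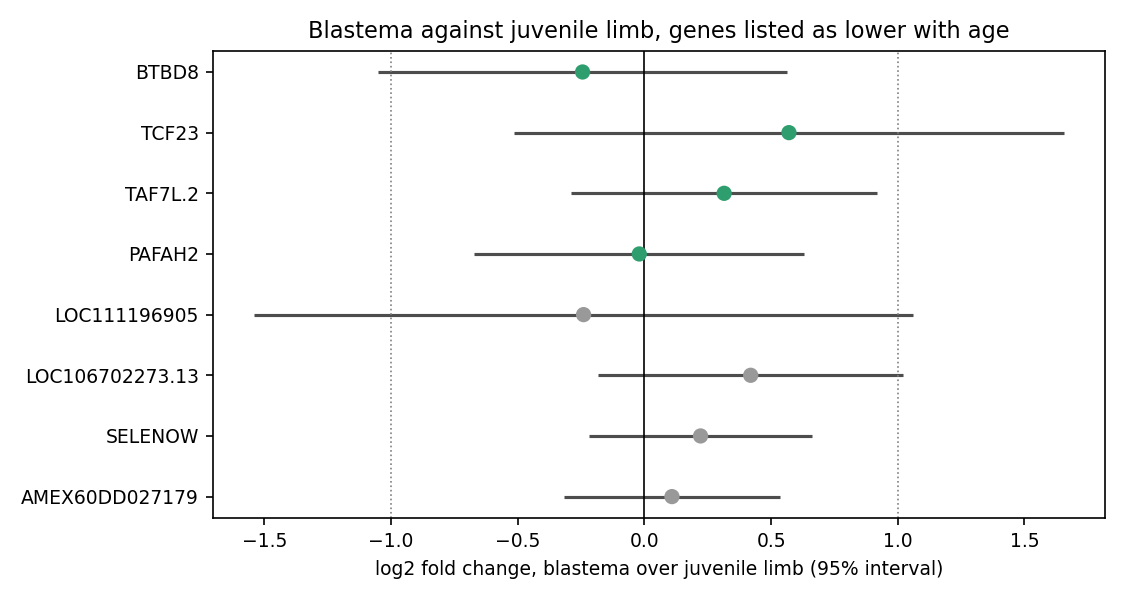
Log2 fold change of blastema over juvenile limb with 95% intervals from edgeR for the 4 genes (green) and 4 further genes listed as lower with age (grey). Dotted lines mark the threshold of 1 in each direction; every interval includes 0, and those of BTBD8, TCF23, LOC111196905 and LOC106702273.13 reach past a dotted line.

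The order of the 10 libraries of the young animals was shared in part between the genes. Juvenile limb 5 was the lowest of the 10 for TAF7L.2 and PAFAH2 and the lowest juvenile limb for TCF23, yet it had the second highest level of BTBD8. Blastema 2 was the lowest for TCF23 but the highest for TAF7L.2 and the second highest for PAFAH2. The coefficient of variation was larger in juvenile limbs than in blastemas for BTBD8 (53.6% against 24.4%), PAFAH2 (38.9% against 17.8%) and TCF23 (51.6% against 45.9%), and smaller for TAF7L.2 (23.9% against 31.3%). Each rests on 5 libraries, and the difference in spread was not tested.

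The study's list of genes lower with age held 5 further genes, and all 5 also had both aged limbs below the 10 other libraries. Like the 4 genes they were chosen on these samples, so this is no independent evidence. AMEX60DD027179, which has no name, had 23 counts over both aged limbs against 1259 over the juvenile limbs, a mean of 4.41% of the juvenile level per aged limb. LOC106702273.13 had 7 counts against 300, LOC111196905 had 2 against 142 and AMEX60DD052812 had 3 against 54. SELENOW, a small selenium-containing protein abundant in muscle of mammals, kept the highest share, 42.0% and 23.2% of the juvenile mean in aged limbs 1 and 2. Of these 5, 4 were tested between blastema and limb and none was called, where 7.45% of all genes tested were. Their median log2 fold change was 0.16, against 0.15 for BTBD8, TCF23, TAF7L.2 and PAFAH2 and −0.02 for all genes tested. The blastemas and juvenile limbs also entered the choice of these genes, which favoured small differences, so these values are no independent evidence.

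The same list held 10 genes that were higher with age, of which 7 had enough counts to be tested between aged and juvenile limbs. Their median log2 fold change was 3.98 and their members were likewise chosen for that difference. One of the 10, AMEX60DD032635, had an identifier 2 below that of TCF23 and too few counts to be tested. It had 6 and 20 counts in aged limbs 1 and 2, 10 over the juvenile limbs and 2 over the blastemas. Aged limb 1 (0.267 CPM) lay below juvenile limb 2 (0.297 CPM).

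**Figure D4:**
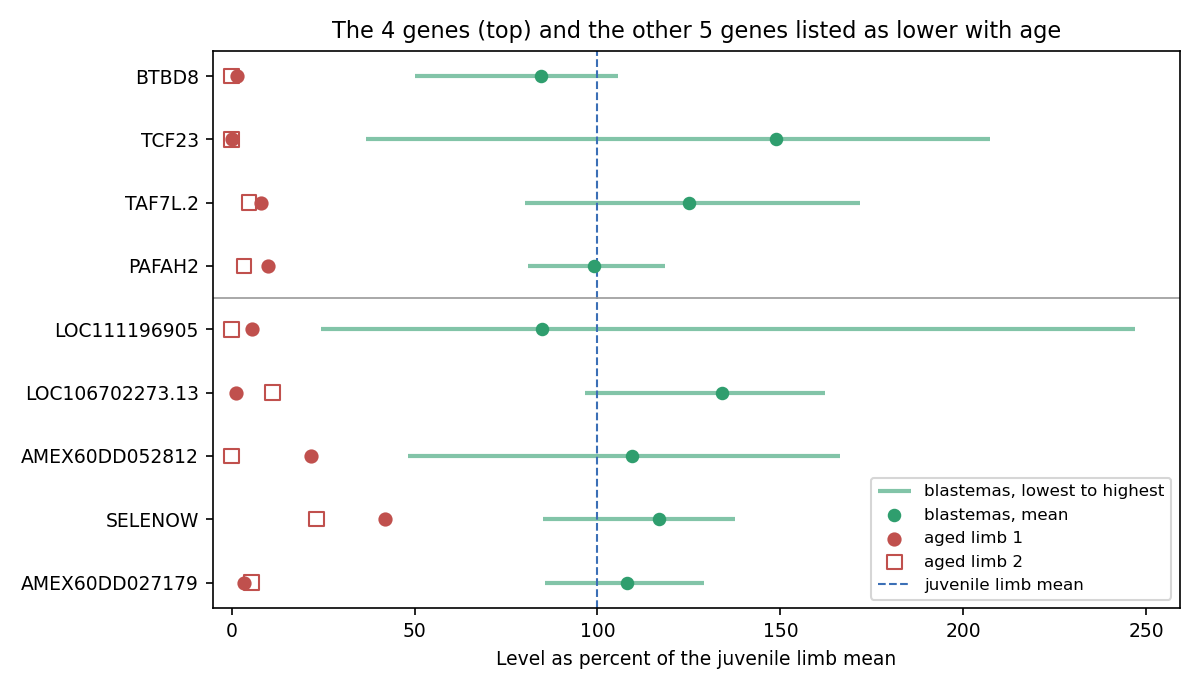
Level in each aged limb and in the blastemas as a percent of the juvenile limb mean, for the 4 genes (above the line) and the other 5 genes listed as lower with age. Filled circles and open squares are aged limbs 1 and 2, green points and bars the blastema mean and range; the aged limbs of the 4 genes lie between 0% and 9.86%.

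Genes with adjacent identifiers were examined in both directions, up to 3 numbers from each member. Their position in the genome was not looked up. None of the 6 identifiers around BTBD8 had a count in any library, while 3 of 6 had one around TCF23, 3 of 6 around TAF7L.2 and 5 of 6 around PAFAH2. AMEX60DD005744 and AMEX60DD005746, directly before and after PAFAH2, had log2 fold changes of −0.19 and −0.11 between aged and juvenile limbs, against −3.85 for PAFAH2 itself. AMEX60DD032638, directly after TCF23, had 0.29, and AMEX60DD032640, 3 after it, had 1.897.

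AMEX60DD032640 varied between animals, with 0 counts in both the limb and the blastema of animal 2, but 109 and 120 counts in the blastema and limb of animal 3. It had 202 and 225 counts in the aged limbs. Beside TAF7L.2 the identifiers held few reads. AMEX60DDU001004022 had 24 counts over the juvenile limbs, 12 over the blastemas and 0 in the aged limbs. In the same order AMEX60DDU001004021 had 21, 10 and 3 counts, and AMEX60DDU001004023 had 7, 9 and 2.

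The pattern most like each gene over the 12 libraries was sought by Pearson's r of log2(CPM + 1) among 18739 genes with a mean of at least 1 CPM. The libraries share the drop in the aged limbs, which sets much of r, and the values are a description. TAF7L.2 and PAFAH2 were each other's closest gene, with r = 0.957. AMEX60DD050189 came second for both, with r = 0.942 and 0.928. Its level was 0.357 and 0.258 CPM in the aged limbs and 2.89 to 4.47 CPM in the others. Next came AMEX60DD027568 for TAF7L.2 (r = 0.929) and AMEX60DD041202 for PAFAH2 (r = 0.926).

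For BTBD8 the closest genes were AMEX60DD038272 (r = 0.932), AMEX60DD027179 (r = 0.927) and AMEX60DD029705 (r = 0.920). In the aged limbs the first and last of these differed from the juvenile limbs by −0.69 and −0.81 on the log2 scale, against −4.49 for AMEX60DD027179. For TCF23 they were AMEX60DD010133 (r = 0.940), AMEX60DD050532 (r = 0.929) and AMEX60DD031572 (r = 0.878). Of these AMEX60DD031572 was at 1.60 and 0.904 CPM in the aged limbs against 4.62 to 10.5 CPM elsewhere.

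Related genes were counted in lists by the role of each member. Each list holds a few genes of its class and not the whole class, so its counts and medians do not describe the class. Many of the listed genes are ones the study named for their change in blastemas, so the counts are not independent evidence of a direction. In none of the 4 lists that follow did a gene have both aged limbs below all 10 other libraries, as 1.78% of all genes tested did. Listed genes with no count in the blastemas could not meet this. No gene of the lists was called between aged and juvenile limbs, where 12 genes (0.0494%) were called lower and 13 (0.0535%) higher. With shares this low, neither absence is a result about the listed genes.

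The list of basic helix-loop-helix and related factors, the class of TCF23, held 10 genes, of which 9 were tested in blastemas. In blastemas 3 were higher and 5 lower, where 1.86% and 5.6% of all genes tested were, with a median log2 fold change of −1.22 against −0.02 for all genes. MYF6.1, a muscle regulator, was absent from the blastemas and at least 104.5-fold lower than in juvenile limbs. TCF15.1, a factor of the embryonic somites in vertebrates, was at least 88.6-fold lower. MYCN, a growth-promoting factor, was higher by 4.46 on the log2 scale with a standard error of 0.82 and an adjusted p of 0.00510 (edgeR). MYF6, the second gene of that muscle regulator, had no count in the blastemas either and was at least 52.7-fold lower. The median difference of the list between aged and juvenile limbs was −0.18.

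The listed genes with a BTB domain or a role in clathrin coats, set beside BTBD8, numbered 15, with 12 tested in blastemas. There, 1 was higher and 6 were lower (1.86% and 5.6% over all genes tested), at a median log2 fold change of −1.26. KLHL34 had no count in any blastema and was at least 328-fold lower. KLHL31, a muscle protein, was at least 212-fold lower, and its second copy KLHL31.1 fell by 11.4 on the log2 scale with an adjusted p of 8.60e-06 (edgeR). KBTBD13, another muscle protein, was at least 107.2-fold lower. The clathrin heavy chain genes CLTC and CLTCL1 had 19.4 and 7.06 CPM on average in blastemas against 21.9 and 7.80 CPM in juvenile limbs. All 22 muscle markers were lower in the blastemas too, and the part of muscle content in these differences was not tested. Between aged and juvenile limbs the list had a median of −0.33.

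The listed phospholipid and lipid hydrolases, the class of PAFAH2, numbered 8, with 5 tested in blastemas. There, none was higher and 3 were lower (1.86% and 5.6% over all genes tested), at a median log2 fold change of −1.57. The 22 muscle markers were lower in the same comparison, and their part in these counts was not tested. The secreted phospholipase PLA2G3.1 was at least 170.9-fold lower and PLCXD3 at least 56.4-fold lower, both with no count in the blastemas. PNPLA2, the lipase that starts the breakdown of stored triglyceride, fell by 1.29 on the log2 scale with a standard error of 0.24 and an adjusted p of 0.00479 (edgeR). Between aged and juvenile limbs 7 of the 8 were tested, with a median of −0.57.

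The listed subunits of general transcription factors and of the Mediator complex, set beside TAF7L.2, numbered 4. Of these, 3 were tested in blastemas and none was called. GTF2H3, a subunit of TFIIH, had 9.93 ± 2.72 CPM in blastemas and 8.83 ± 2.65 CPM in juvenile limbs (SD, n = 5 each). The median of the list between aged and juvenile limbs was 0.02, against −0.04 for all genes tested.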

How the data were processed

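RNA was sequenced from stranded libraries (SmarterStranded V2, per the labels). The authors trimmed reads with Trimmomatic 0.39, mapped them to AmexG_v6.0-DD by STAR 2.7.9a, and deposited whole-number counts per gene from featureCounts on AmexT_v47, without normalization; its settings for strand, multiple matches and overlaps are not given in the sources used here. Per-library and joint tables were equal.

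Each pair of groups was fitted on its own libraries, with no term for the animal, in edgeR 4.0.16 (R 4.3.3) after filterByExpr and TMM scaling. Its quasi-likelihood test gave p-values, adjusted over all genes by the Benjamini-Hochberg method. The study itself used DESeq2, and version 1.42.0 was run as an alternative. All 4 genes passed the filter in both comparisons. CPM use 1 TMM scaling over 12 libraries. Pooled ratios to juvenile limbs use the scaling of the 7 libraries compared, and a group at 0 is set at 3 counts over the group. Fold changes given as a bound or as at least rest on this floor and leave out counting error. The fit was tested on simulated data, but the outcome is not reported here.

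The 4 genes and all lists were chosen with earlier results of these data known. Named besides the members are the other listed age genes, the 3 most alike genes, neighbouring identifiers within 3 numbers and up to 4 examples per related list (called genes of largest change); CLTC, CLTCL1 and GTF2H3, and the neighbours described, were chosen after their values were seen. In RefSeq's UKY_AmexF1_1 table, another build used for names alone, 3 of 4 symbols matched, all protein coding, and TCF23 did not. By the study's methods the 5 blastemas were taken from the animals of the 5 juvenile limbs, and equal replicate numbers were taken as the same animal. Deviations from the group mean correlated within these pairs at a median of 0.139 (−0.0033 to 0.212). Over 20 pairs of different animals the median was −0.0063 (−0.220 to 0.130), so the ranges overlap.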

Additional observations from a re-analysis of the deposited data

How the results depend on the processing

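No paired analysis was possible because no animal gave both an aged and a juvenile limb; this concerns the aged comparison alone. Between blastema and juvenile limb, none of BTBD8, TCF23, TAF7L.2 and PAFAH2 was called under any alternative. In the main fit 7.45% of all genes tested were called, and with a share so low the absence is no result about these genes. With a replicate block for the animals the log2 fold changes were −0.13, 0.53, 0.29 and 0.064, with standard errors of 0.32, 0.52, 0.27 and 0.26. The count of called genes was then 1394. PAFAH2 also turned to 0.036 with no filter on low counts, and leaving out 1 library at a time moved it from −0.21 to 0.16. BTBD8 ranged from −0.41 to 0.088 in that way, the latter without juvenile limb 8, TCF23 from 0.42 to 0.86 and TAF7L.2 from 0.20 to 0.44. The 1488 genes called overall became 2701 with DESeq2 and 3260 with no filter on low counts, and 1099 to 1800 with 1 library left out.

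Between aged and juvenile limbs 25 genes were called with edgeR, against 304 with DESeq2 and 897 with no filter, and 0 to 9 with 1 library left out. The count of 0 came without aged limb 1, where 2476 genes had an unadjusted p under 0.05 in edgeR's test. Besides leaving out libraries, 3 alternatives were compared for BTBD8 and TCF23 and 6 for TAF7L.2 and PAFAH2. The aged limb differences kept their sign in all of these, which the choice of genes on the aged limbs favoured, so this is no independent evidence. With 1 library left out they ran from −6.81 to −4.75 for BTBD8, −4.50 to −3.07 for TCF23, −4.35 to −3.56 for TAF7L.2 and −4.84 to −3.29 for PAFAH2; those of BTBD8 and TCF23 without 1 aged limb follow from the floor and the few counts left. With only 2 aged limbs, a fit on 1 assumes that it varies like the juvenile limbs. The exact permutation test planned for members under the filter had no gene to apply to.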
